A study of Mus musculus with 10 samples.

Results

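Sox4 sites outside consistently open wildtype chromatin were regions of the mouse genome where Sox4 CUT&RUN peaks of different replicates lay close together. At least 1 wildtype ATAC list had no peak there. Peaks of 3 Sox4 lists were ranked by -log10 p within each list, and at most the 20000 strongest autosomal peaks per list were kept. Each was reduced to the 250 bp on either side of its summit, the base of highest signal. A site had overlapping windows from at least 2 of 3 replicates, which gave 1502 sites. How many of these overlaps would arise by position alone was not tested. A site was an outside site where at least 1 of the 3 full wildtype ATAC lists had no peak over it. There were 475 outside sites (31.6% of all), and the other 1027 sites, with a peak in all 3 wildtype lists, are called open sites below. Without replicate 1, 2 or 3, and with a window required in both others, 245, 159 and 124 outside sites were left. The members were thus chosen by the -log10 p of the Sox4 peaks and by the presence of wildtype ATAC peaks, and both are given as description, with no test.

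The embryos were mice at E13.5, and the labels give cochlear duct epithelium, freed by enzymes, as the tissue. Sox4 was mapped in wildtype p27kip1-GFP mice, in 3 replicates of GFP positive progenitors sorted by flow cytometry. CUT&RUN cuts and releases DNA beside a bound antibody, here an antibody raised in guinea pig against Sox4. ATAC-seq, which cuts accessible DNA, was made from unsorted wildtype tissue, called whole organ in its titles (3 libraries), and from SoxC double knockout tissue (2 libraries). The ATAC labels do not name the deleted genes or the Cre driver, and no label says whether replicates came from separate litters, so any spread given here may be technical. Chromatin open only in the sorted progenitors and chromatin closed in all cells cannot be told apart in ATAC data of unsorted tissue. Neither read totals nor a control antibody list was among the files used, so depth was unknown. The peak lists carry no RNA, so the labelled cell type was not checked against its markers.

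Sox4 belongs with Sox11 and Sox12 to the SoxC group of transcription factors, which bind the minor groove of DNA through an HMG box and bend it. SoxC factors act in progenitors of the inner ear before hair cells and supporting cells form. Some SOX factors can bind sites wrapped in nucleosomes, and CUT&RUN peaks can also arise where reads pile up for other reasons, for example over satellite repeats near centromeres or over gene copies that the reference genome holds fewer times than the animal does. Exclusion lists of such loci exist for mouse, and none was used here.

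Few outside sites lay over the start of an annotated gene, and promoters were the only stretches near members whose bases were at hand. Of the 475 outside sites, 11 overlapped a RefSeq promoter window (250 bases before to 50 after a gene start, build GRCm38.p6), against 520 of the 1027 open sites. Open sites were chosen by their wildtype ATAC peaks, and how much of this contrast the rule set was not tested. Windows of a single Sox4 replicate were not counted over promoters. The 250 bases before the start are given on the strand of the gene for 4 of the 11 promoters, chosen after their values were seen because the site covered all or most of these bases. It covered 231 of them at Brat1 and all 250 at 4931408C20Rik, at Taco1os, an RNA gene opposite Taco1, and at Cwc22, which lies in a cluster of outside sites. Capitals mark a 6-base SOX core, ACAAAG or ACAATG, on either strand (CTTTGT is ACAAAG read on the other strand).

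Brat1 promoter, chr5:140704761-140705010, plus strand: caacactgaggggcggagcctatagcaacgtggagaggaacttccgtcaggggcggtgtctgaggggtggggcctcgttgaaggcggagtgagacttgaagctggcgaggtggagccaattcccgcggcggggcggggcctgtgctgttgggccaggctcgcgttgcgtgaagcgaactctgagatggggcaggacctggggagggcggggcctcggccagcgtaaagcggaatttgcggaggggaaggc
4931408C20Rik promoter, chr1:26687461-26687710, minus strand: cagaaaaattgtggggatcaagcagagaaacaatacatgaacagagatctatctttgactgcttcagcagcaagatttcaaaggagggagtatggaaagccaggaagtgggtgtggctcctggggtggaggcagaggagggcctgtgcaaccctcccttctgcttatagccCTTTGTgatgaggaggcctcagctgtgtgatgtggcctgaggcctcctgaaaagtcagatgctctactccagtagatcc
Taco1os promoter, chr11:106066042-106066291, minus strand: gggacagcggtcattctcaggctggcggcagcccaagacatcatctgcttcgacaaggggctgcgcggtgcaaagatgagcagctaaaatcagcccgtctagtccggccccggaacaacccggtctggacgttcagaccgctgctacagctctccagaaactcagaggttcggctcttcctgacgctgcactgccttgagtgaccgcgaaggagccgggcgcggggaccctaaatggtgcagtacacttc
Cwc22 promoter, chr2:77946357-77946606, minus strand: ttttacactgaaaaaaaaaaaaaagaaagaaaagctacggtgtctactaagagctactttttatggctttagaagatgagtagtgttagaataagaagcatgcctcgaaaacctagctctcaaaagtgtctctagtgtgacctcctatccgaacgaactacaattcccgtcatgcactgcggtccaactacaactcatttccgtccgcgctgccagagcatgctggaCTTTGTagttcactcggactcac

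The promoter of Brat1, which encodes an activator of the ATM kinase, and that of Taco1os held neither core. Those of 4931408C20Rik and of Cwc22, a splicing factor gene, held 1 ACAAAG each, inside the Sox4 site. In 2 further promoters, of the histone gene H4f16 and of Olig2, the single core lay outside the site. Over the whole windows, 4 of 11 at outside sites held ACAAAG or ACAATG (36.4%, exact 95% interval 10.9 to 69.2). The share was 19.6% of 520 windows at open sites and 28.1% of all 31396 promoter windows. ACAAAG alone was in 3 of 11 windows (27.3%) against 18.6% of all, and ACAATG in 1 (9.09%) against 12.2%. The longer AACAAAG, which contains ACAAAG, was in none of the 11 and in 5.80% of all windows. With 11 windows the interval held both other shares, so no difference in motif content was detectable. These shares cover the whole promoter window and not the site alone. A stretch of 31 bases repeated in another promoter was found in 2 of the 11, those of 4931408C20Rik and Bglap3 (18.2%), in 1.15% of windows at open sites and in 10.2% of all windows.

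Most outside sites had no wildtype ATAC peak at all, rather than a peak missing from a single library. Of the 475, 426 (89.7%) had a peak in none of the wildtype lists, 31 in 1 list and 18 in 2. The 67 wildtype peaks at the remaining 49 sites had a median -log10 p of 4.89 and reached 172 at Pou3f3. At the open sites the weakest of the 3 wildtype peaks had a median of 63.3. For the 426 sites the nearest wildtype peak lay a median of 4504.5 bp away, within 500 bp at 35 sites and over 10 kb away at 137. Windows of a single Sox4 replicate with no wildtype peak lay a median of 3421 bp from one. No ATAC peak of either genotype was found at 396 outside sites (83.4%).

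**Figure D1:**
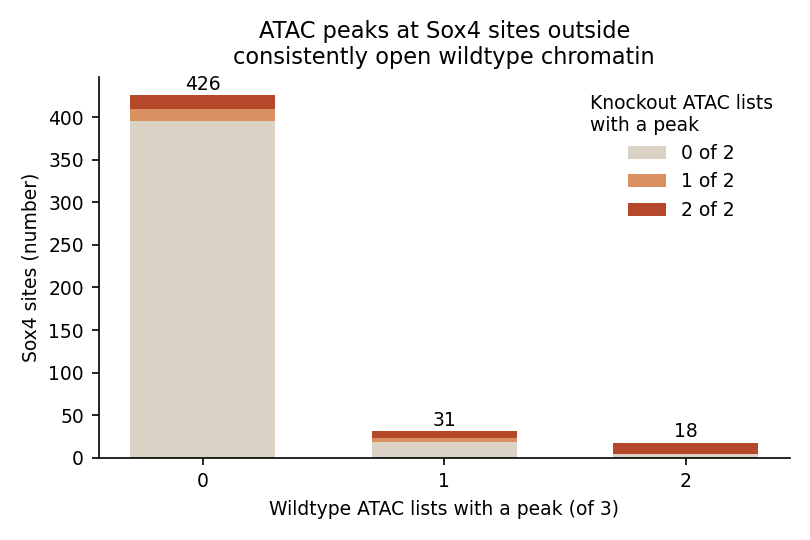
Number of outside Sox4 sites (y axis) by how many of the 3 wildtype ATAC lists had a peak there (x axis), with colours for the number of knockout lists with a peak. The bar of 426 sites without a wildtype peak is mostly without a knockout peak too.

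The knockout ATAC lists played no part in choosing the sites, but open sites were chosen by peaks of the same assay in wildtype tissue. A large difference between the classes was thus largely set by the rule, and the test below is no independent evidence of one. A peak in both knockout lists was found at 38 outside sites (8.00%, exact 95% interval 5.72 to 10.8) and at 1021 of the 1027 open sites (99.4%), and at 70.5% of all sites. The odds ratio was 0.000511 (two-sided Fisher exact test over sites, adjusted p at or below 1e-300, the smallest value recorded). In the following, p-values are adjusted by the Benjamini-Hochberg method, here and for gene ends over the 3 shares planned for testing, and they speak of these sites, since neighbouring sites are not independent. Of the 38, 17 had no wildtype peak. The strongest knockout peak among them lay over Gm40371 (chr6:47650699-47651412), at rank 2 and rank 1072 of the knockout lists. The site at Taco1, a gene of mitochondrial translation, had knockout ranks of 793 and 2752, that at H4f16 3367 and 6503, that at Lars2 4945 and 12665 and that at Brat1 5179 and 3085. These 5 sites thus had strong peaks in both knockout libraries and none in any wildtype library, and they were not the only ones. The site 30926 bp from 4930467E23Rik had knockout ranks of 10266 and 3757 and no wildtype peak, the nearest being 56417 bp away. The site in Sec24a had knockout ranks of 8099 and 9668 and no wildtype peak over it. Peaks of all 3 wildtype lists lay only 109 to 146 bp from the Sec24a site, however.

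The numbering of the lists had gaps, and whether these bear on those 5 sites was not tested. Peaks were numbered in order of -log10 p, and the wildtype lists skipped 19, 39 and 44 of their first 1000 numbers, against 5 and 5 in the knockout lists. Over their whole length the wildtype lists skipped 5345, 5111 and 6303 numbers and held no peak outside chromosomes 1 to 19. The knockout lists skipped 171 and 202 numbers and held 6164 and 5584 such peaks. Whether the numbers skipped in wildtype were peaks of those chromosomes was not tested. In the Sox4 lists 38 of the first 100 numbers were skipped in each replicate. The peaks behind the skipped numbers were not analysed here, and whether any lay at an outside site was not tested.

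The site with rank 1 in all 3 Sox4 replicates was an outside site. It lay 450654 bp from Tnc, the nearest coding gene, which encodes an extracellular matrix protein (chr4:64497669-64498269). Its -log10 p was 128, 307 and 447 in replicates 1 to 3, its fold enrichment over local background 26.7, 24.1 and 26.2, and its peaks were 395, 602 and 555 bp wide. The nearest ATAC peaks of all 5 lists lay 4747 to 4760 bp away. A site 92677 bp from Kcnh5, a potassium channel gene, ranked 8, 6 and 4 with folds of 17.7, 13.03 and 14.6. A site inside Lars2, which encodes the mitochondrial leucyl-tRNA synthetase, ranked 4, 11 and 20 with folds of 19.6, 12.5 and 8.70. A site 124435 bp from Pou4f1, a neuronal transcription factor gene, was rank 2 in replicate 1 and rank 85 in replicate 2, with folds of 24.3 and 7.89 and summits 4 bp apart. It had no peak in the full list of replicate 3.

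Further strong sites lay in or near single genes. Dock2, a guanine nucleotide exchange factor gene of blood cells, held a site with ranks of 83, 29 and 25 and folds of 10.1, 9.32 and 8.89, and a second with ranks of 1848, 1533 and 62. A site in Jarid2, the gene of a Polycomb cofactor, ranked 110, 18 and 30. Its folds were 9.27, 11.5 and 8.80, it lacked any wildtype peak, and it had peaks in both knockout lists. The site 52824 bp from Frmd4a differed between replicates, with rank 993 in replicate 1 and ranks of 7 and 5 in replicates 2 and 3. At Sos2, a Ras activator gene, replicates 2 and 3 gave ranks of 275 and 8, and replicate 1 had only a weaker peak below the limit.

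A member in all 3 replicates lay inside Pcdh15, whose protocadherin forms part of the tip links of hair cells (chr10:73378949-73379458). Its ranks were 495, 484 and 94, its -log10 p 11.6, 11.3 and 19.1 and its folds 6.91, 5.44 and 6.75, with all 3 summits within 9 bp. The nearest wildtype ATAC peak lay 21077 bp away.

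High significance did not always come with high enrichment. Near the first positions of any list, below 3.2 Mb on their chromosome, lay 16 outside sites, 5 on chromosome 9, 7 on chromosome 11 and 2 each on chromosomes 4 and 16. No open site lay there (0 of 1027, exact 95% interval up to 0.359%), and the 16 were 1.07% of all sites. None of the 16 had an ATAC peak in any of the 5 lists, and 6 were found in all 3 replicates. The mouse chromosomes have their centromeres at this end. The chromosome 9 site at chr9:3033139-3033692 ranked 5, 4 and 3, yet its folds were 5.25, 3.18 and 3.27. In replicate 1 its -log10 p of 74.1 was that of the Lars2 site, where the fold was 19.6. The site at chr9:3001970-3002558 ranked 21, 3 and 2 with folds of 4.18, 4.29 and 5.29, and that at chr9:3024149-3024679 ranked 25, 9 and 6 with folds of 3.99, 3.52 and 4.10. The nearest coding gene of all 3, Alkbh8, lay at least 301539 bp away. These 3 sites combined ranks near the top with folds between 3.18 and 5.29, while the medians of all kept windows were 5.29, 4.14 and 3.27. The other 13 were mixed. By second-best rank, 7 of the 16 stood at rank 1 to 500 and 5 beyond 10000, and folds over the 16 ranged from 3.99 to 8.47 in replicate 1, from 2.40 to 5.87 in replicate 2 and from 2.92 to 5.29 in replicate 3. Whether they are loci of artefact signal was not tested.

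Clusters of outside sites were few and small. Another Sox4 site lay within 10 kb of 60 outside sites (12.6%, exact 95% interval 9.78 to 16.0) and of 35 open sites (3.41%), and of 6.32% of all sites. Within 1 kb the shares were 3.37% and 0.584%. Within 50 kb they were 19.8% and 17.8%, and within 100 kb 25.7% and 28.2%, so the order held for short distances only. The share of outside sites with a neighbour within 10 kb was 9.80% without the 16 sites at chromosome starts. It was 6.29% without Sox4 replicate 2 and 4.84% without replicate 3, beside 2.33% and 0.798% of open sites. Chained at 10 kb, the 475 outside sites formed 445 loci, of which 25 held 2 or more sites and 55 sites in all.

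The locus with most members at 10 kb was in Sfi1, the gene of a centrosome protein, with 4 sites in 14845 bp (chr11:3126757-3141601). The 7 outside sites in or near Sfi1 spanned 74154 bp. Their best ranks ranged from 125 to 1762, while their folds lay between 3.30 and 8.13. The 5 sites at the start of chromosome 9 spanned 31723 bp. At Cwc22, 9 sites spanned 157162 bp (chr2:77869724-78026885), none of them in all 3 replicates and 8 of them without an ATAC peak. The largest chain at 100 kb had 11 sites in 151686 bp of chromosome 5, among Speer4e, Gm9758, Gm10354 and Gm17019 (chr5:14903258-15054943), none in all 3 replicates. Speer genes are a rodent family of tandem copies.

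Beyond the strongest ranks, outside sites resembled the bulk of Sox4 windows in their own list. Their median -log10 p was 7.66, 6.998 and 5.46 in replicates 1 to 3, the same values as the medians of all kept windows, whose -log10 p took only 449, 664 and 801 distinct values. For open sites the medians were 9.37, 9.11 and 7.47. Median fold was 5.17, 4.10 and 3.27 at outside sites and 5.96, 4.76 and 3.79 at open sites, a difference of -0.65 ± 0.14 (SD, n = 3 replicates). Median peak width was 319, 381 and 338 bp against 379.5, 447.5 and 399 bp, a difference of -62.7 ± 3.33 bp (SD, n = 3 replicates). Outside sites were thus lower and narrower in every replicate. No test was made, because width and fold come from the peaks that were ranked.

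**Figure D2:**
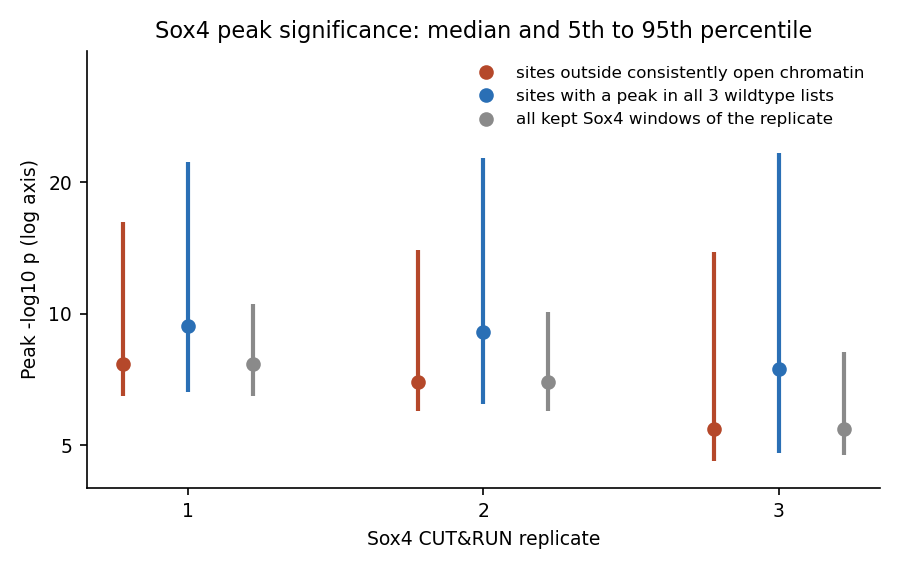
Peak -log10 p (log axis) in each Sox4 replicate (x axis) for outside sites, open sites and all kept windows; points are medians and lines run from the 5th to the 95th percentile. The outside sites share the median of all kept windows, and their 95th percentile lies between that of all windows and that of open sites (16.2 against 10.5 and 22.3 in replicate 1).

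The difference in width and fold followed rank in part. Among sites ranked 1 to 2000 in a replicate, median width was 348, 481 and 470 bp at outside sites and 403.5, 505 and 464 bp at open sites. Among sites ranked over 10000, it was 311.5, 354 and 313 bp against 369, 372 and 326 bp. Median fold at ranks 1 to 2000 was 6.70, 5.16 and 4.09 at outside sites and 7.13, 5.87 and 4.52 at open sites. At ranks over 10000 it was the same to 3 digits in both classes, 4.76, 3.92 and 3.07. For sites found in all 3 replicates (29 outside sites), the difference in width was 1.17 ± 27.5 bp (SD, n = 3 replicates), so no difference was seen there.

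Outside sites were a small part of the strong sites and about as many as open sites among the weak. Sites were sorted by their second-best rank over the replicates. Of the 242 sites at rank 1 to 500, 24 were outside sites (9.92%), and of the 199 at rank 501 to 2000, 17 (8.54%). The share was 17.2% of 128 sites at rank 2001 to 5000, 26.7% of 232 at rank 5001 to 10000 and 49.9% of 701 beyond. The 24 strongest stood apart within the class. Of these, 9 had another site within 10 kb (37.5%), 7 lay below 3.2 Mb and 5 had a peak in both knockout lists. Their summits lay within 100 bp of each other at 19 (79.2%), against 56.4% of the 218 open sites of like rank and 26.0% of the 350 weakest outside sites.

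**Figure D3:**
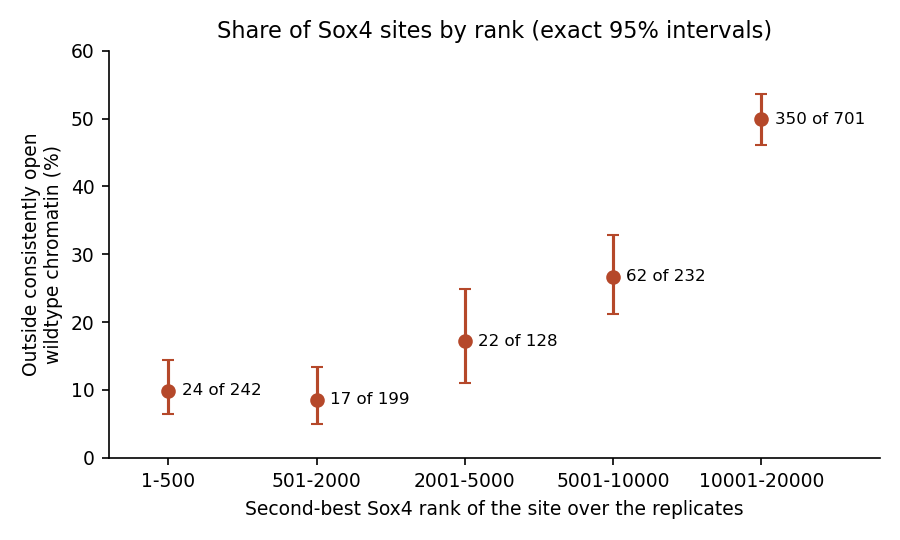
Share of Sox4 sites that lay outside consistently open wildtype chromatin (y axis, percent) by the second-best rank of the site (x axis); bars are exact 95% intervals and labels give the counts. The share rises from 9.92% at rank 1 to 500 to 49.9% beyond rank 10000.

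The summits of 2 replicates at an outside site were often far apart. Of the 446 outside sites found in exactly 2 replicates, 122 had summits within 100 bp (27.4%, exact 95% interval 23.3 to 31.7), against 340 of 687 open sites (49.5%, 45.7 to 53.3) and 40.8% of all. The median distance was 214.5 bp and 102 bp. In steps of 50 bp the outside sites numbered from 70 in the first step to 34 in the last, whereas open sites fell from 190 to 23. Among sites whose weaker rank was over 10000, the share within 100 bp was 25.9% at outside and 41.7% at open sites. Where both ranks were 10000 or better, it was 32.0% at outside and 56.3% at open sites. At second-best ranks of 1 to 500 the order was the other way, as given above, but over sites of 2 or 3 replicates together. For sites of exactly 2 replicates that range was not counted by itself.

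**Figure D4:**
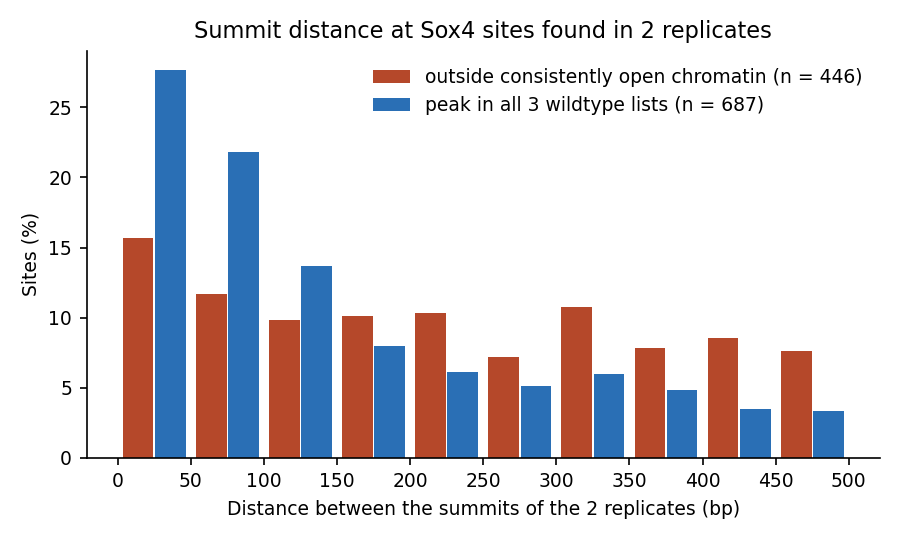
Share of sites (y axis, percent) by the distance between the summits of the 2 replicates that define them (x axis, steps of 50 bp), for 446 outside and 687 open sites. Open sites pile up below 100 bp, and outside sites spread over the whole range that the merging allowed.

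Sox4 signal at an outside site seldom recurred in a further replicate. Only 29 of 475 were found in all 3 replicates (6.11%), against 340 of 1027 open sites (33.1%) and 24.6% of all. To test recurrence with a list that took no part in choosing the sites, sites were also built from 2 replicates alone and looked up in the full list of the replicate held out. This comparison was added after the data were seen. In the full list of replicate 1, 71 of 245 outside sites had a peak (29.0%, exact 95% interval 23.4 to 35.1), against 472 of 636 open sites (74.2%) and 61.6% of all. In replicate 2 it was 42 of 159 (26.4%) against 398 of 558 (71.3%) and 61.4% of all, and in replicate 3 30 of 124 (24.2%) against 360 of 501 (71.9%) and 62.4% of all. The odds ratios were 0.142, 0.144 and 0.125 (two-sided Fisher exact tests over sites, adjusted p = 4.47e-34, 3.87e-24 and 3.15e-22 over these 3 tests). Outside sites had the lower share in each replicate. Ranks were not matched in these tests. Over all sites, median Sox4 rank in replicates 1 to 3 was 6392, 10155 and 10619 at outside sites and 1848, 1690 and 1684 at open sites.

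**Figure D5:**
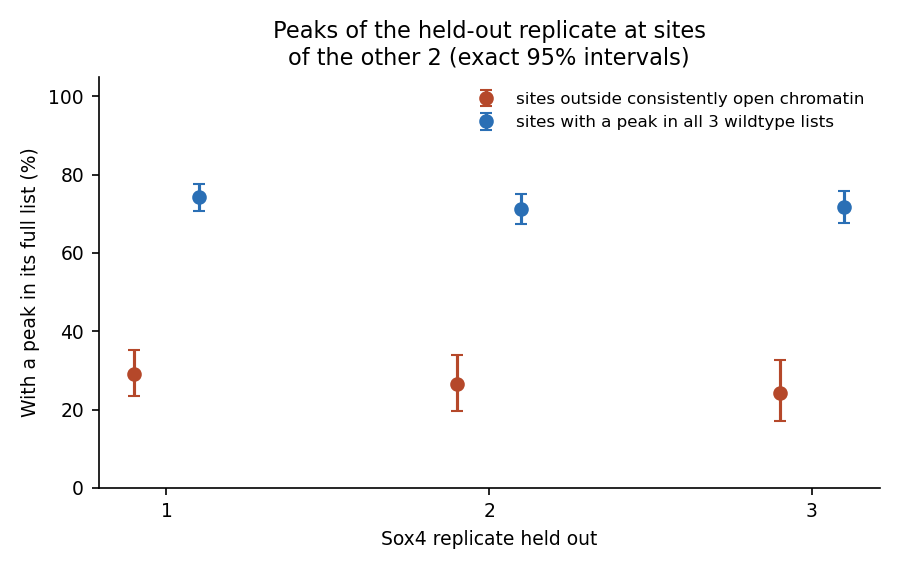
Share of sites built from 2 Sox4 replicates that had a peak in the full list of the replicate held out (y axis, percent), by that replicate (x axis), with exact 95% intervals. Outside sites lie between 24.2% and 29.0% and open sites between 71.3% and 74.2%.

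The 446 outside sites found in exactly 2 replicates had, by that choice, no kept window in the remaining one, so the weaker peaks of its full list are given as description. A peak was there at 63 of 446 outside sites (14.1%) and at 229 of 687 open sites (33.3%), and at 25.8% of all. With the remaining replicate being 1, 2 or 3, the share was 20.6%, 10.8% and 4.08% at outside sites and 46.8%, 28.7% and 14.7% at open sites. Windows of a single replicate that lacked a wildtype peak had a peak in 5.76%, 2.68% and 0.970% of cases in the same lists. Such windows are mostly shorter than sites of 2 replicates, and length was not matched.

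Rank mattered for this share as well. With both ranks 10000 or better, 29 of 103 outside sites had a peak in the remaining list (28.2%, exact 95% interval 19.7 to 37.9). For open sites it was 135 of 366 (36.9%, 31.9 to 42.1). The intervals overlapped, which is no test of the difference. Where the weaker rank was over 10000, the shares were 9.91% of 343 and 29.3% of 321. When only 10000 peaks were kept per list, the shares were 30.8% of 107 outside sites and 48.6% of open sites. A second deposited list for the sample of replicate 1, whose peak names carry another library tag, gave a further view. Its 19921 strongest peaks covered 17.7% of outside sites and 48.7% of open sites, while all its 370526 peaks covered 95.2% and 98.6%. Of the 218 outside sites without a window of replicate 1, the 19921 covered 38 (17.4%), against 2.83% of windows lacking a wildtype peak and found in replicate 2 or 3 alone. All its peaks covered 99.5% and 89.2% of the same. Sites of 2 replicates are merged windows and mostly longer than a window of 1 replicate (501 bp), and neither length nor rank was matched. Whether the second list is an independent library is not given in the sources used here.

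Seen from single replicates, sharing was rare outside open chromatin. Of 10747, 17595 and 16291 kept windows that lacked a wildtype peak, 2.39%, 1.96% and 2.31% were part of a site. Of windows with all 3 wildtype peaks, 41.4%, 35.2% and 33.3% were. The 47892 windows found in a single replicate lacked a wildtype peak in 91.2% of cases.

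Outside sites lay away from gene ends. Within 1 kb of an end of a coding gene were 27 of 475 (5.68%, exact 95% interval 3.78 to 8.16), against 575 of 1027 open sites (56.0%, 52.9 to 59.1) and 40.1% of all. The odds ratio was 0.0474 (two-sided Fisher exact test over sites, adjusted p = 9.93e-90). The share of all wildtype ATAC peaks at gene ends is not given here, so the test speaks of the contrast with open sites only. Within 1 kb of a gene end were 6.67% of outside sites with all ranks at 10000 or better and 5.35% of the others. Single-replicate windows without a wildtype peak lay there in 3.65% of cases. Inside coding genes were 41.5% of outside and 70.4% of open sites, and inside a gene but over 1 kb from its ends 37.3% and 22.7%. Over 100 kb from any coding gene were 22.3% and 8.08%. The median number of coding genes within 500 kb was 6 and 13. Over all sites the values, in the same order, were 61.3%, 27.3%, 12.6% and 10. Over the single-replicate windows they were 44.1%, 41.7%, 27.5% and 5, so outside sites were nearer to these windows than to open sites.

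The best ranked of the 27 at gene ends were those of Lars2, Brat1, Lhfpl5, 4931408C20Rik, H4f16, Speer4e, Slc30a4 and Mup5. Brat1 had ranks of 84 and 224 in replicates 1 and 2 and a peak below the limit in replicate 3. H4f16 had ranks of 2862 and 94 in replicates 2 and 3, with a peak below the limit in replicate 1. The site 62 bp from Lhfpl5, which encodes a part of the mechanotransduction complex of hair cells, ranked 1929 and 1533 in replicates 1 and 2, but its summits were 474 bp apart. The nearest ATAC peaks there were 13 to 74 bp away in 4 of the 5 lists. In Slc30a4, a zinc transporter gene, the ranks were 5161, 1533 and 48, and in 4931408C20Rik 2202, 136 and 232, with widest peaks of 1002 and 1371 bp.

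The genes nearest to outside sites included many with predicted or clone names. A coding gene of 5 name families (olfactory receptors, vomeronasal and formyl peptide receptors, zinc finger proteins, predicted models or Riken clones, and tandem families) was nearest within 100 kb at 90 outside sites (18.9%, exact 95% interval 15.5 to 22.8) and 57 open sites (5.55%, 4.23 to 7.13). Such genes made up 19.5% of the 20665 coding genes, so the outside share was close to their share of the gene table. Most were predicted models or Riken clones, at 52 outside sites (10.9%), 2.24% of open sites and 7.08% of coding genes. Tandem families such as Speer, Mup and Klra were nearest at 15 outside sites (3.16%), 0.584% of open sites and made up 3.32% of coding genes. Zinc finger genes were nearest at 3.37% and 2.73% (2.03% of coding genes), with overlapping intervals. Olfactory receptor genes were nearest at 3 outside sites (0.632%) and vomeronasal and formyl peptide receptor genes at 4 (0.842%), and neither at an open site, while they made up 5.34% and 1.75% of coding genes. Ribosomal protein and hnRNP genes were nearest at 1 outside site (0.211%) and 11 open sites (1.07%), beside 0.552% of coding genes. Annotated pseudogenes lay under 9 outside and 3 open sites, and transcribed pseudogenes under 9 and 2. Long noncoding RNA genes lay under 57 outside sites (12%) and 161 open sites (15.7%), and no outside site overlapped a miRNA hairpin.

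Outside sites near genes of inner ear development were counted for short lists of genes. The lists held 3 SoxC family, 28 prosensory, 19 supporting cell, 23 Notch, 24 hair cell, 44 Wnt and 15 Hippo and TEAD genes. The gene table held 20665 coding genes. Within 100 kb and nearest, SoxC family genes had none and 1 open site. Prosensory genes had 1 outside and 13 open sites, supporting cell genes 0 and 6, and Notch pathway genes 0 and 6. Hair cell genes had 2 outside sites and no open site, Wnt genes 3 and 5, and Hippo and TEAD genes 2 and 1. Lists for spiral ganglion neurons, otic mesenchyme, glia with melanocytes, and blood with endothelium and macrophages had neither. These counts are too small for any statement on a list.

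The prosensory site lay 12070 bp from Cdkn1b, the gene of the cell cycle inhibitor p27kip1, whose GFP strain was used for sorting. It ranked 10629 and 3316 in replicates 1 and 3, with folds of 3.63 and 2.25 and the nearest ATAC peak 5111 bp away. The second hair cell site lay 11098 bp from Pou4f3, a transcription factor gene needed by hair cells. It ranked 11173 and 1684 in replicates 2 and 3, with folds of 3.41 and 3.89 and summits 21 bp apart. Of the Wnt genes, Fzd4, a receptor gene, had a site 3746 bp away with weak peaks in 2 wildtype lists (-log10 p of 8.14 and 8.04) and a gap of 3 bp to a peak of the remaining list. Sites near Wnt5a, the gene of a ligand, and in Lgr4, the gene of an R-spondin receptor, had no ATAC peak and weakest ranks of 10619 and 17851. Of the Hippo genes, Yap1, the gene of the pathway's effector, had a site 24522 bp away at ranks of 17851 and 17690, with ATAC peaks of all 5 libraries 74 to 128 bp from it. Vgll4, the gene of a TEAD cofactor, held a site with 2 wildtype and 2 knockout peaks. Apart from Pcdh15, the sites of these lists were in 2 replicates, and none had a peak in the remaining list.

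Sites next to the limit of the rule show how it divides. The strongest wildtype signal at outside sites was at Pou3f3, a neural transcription factor gene, with -log10 p of 172 and 58.7 in replicates 1 and 3 and a peak of replicate 2 that ended 30 bp away. At Aff3 the values were 20.9 and 11.4 with a gap of 33 bp in replicate 3. At Mocs2 they were 27.1 and 19.8, and near Frmd4b 16.1 and 14.9, with the nearest peak of the missing list 6882 and 2500 bp away. Just outside the rule, open sites near Zfp970 had 5.55, 6.46 and 3.11, near Rai14 3.52, 3.50 and 8.39, near Taar9 34.8, 4.55 and 3.70, and near Ppcdc 14.3, 5.21 and 3.70. Of the 18 outside sites with 2 wildtype peaks, Fzd4 (3 bp), Nim1k (7 bp), Pou3f3, Aff3 and Agpat4 (97 bp) had a peak of the missing list within 100 bp.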

How the data were processed

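The deposited files were peak lists from 3 Sox4 CUT&RUN, 3 wildtype ATAC and 2 SoxC double knockout ATAC libraries. STAR, MACS2, deepTools and UMI-tools and the builds mm10 and GRCm38 are named without versions per the submitters' processing notes. Fold enrichment over local background was deposited by the authors as a ratio, and significance was deposited as -log10 p. No read counts stood in the lists.

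Overlapping peaks of a list were merged. Tied -log10 p shared the worst rank: 16258, 112 and 7479 Sox4 peaks of replicates 1 to 3 were tied at rank 20000 and were left out, leaving 12524, 19900 and 18961 windows of 501 bp. Taking such ties in chromosome order gave 630 of 1701 sites. An overlap of 1 bp counted, and chromosomes 1 to 19 were used, since the wildtype lists held no X. Gene positions (20665 coding genes) and promoters were those of RefSeq GRCm38.p6. No genome sequence was used, so sites away from promoters have no bases here, and motifs were searched in promoters only. Shares have exact binomial intervals, and classes of sites were compared by two-sided Fisher exact tests (SciPy 1.17.1, Python 3.11.15, pandas 2.3.3). Intervals and p-values cover counting error only. The scripts were tested on simulated lists. The 2 single-cell libraries were not used, since their tables carried no gene names.

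The members, gene lists and alternatives were chosen with earlier results of these data known. Named sites were up to 20 members in all 3 replicates, the 8 best ranked at gene ends, the 8 best ranked without ATAC peaks or neighbours, the 6 loci with most sites, members nearest to listed genes, and the 4 nearest the limit on each side. Not every site that the rule names is described. Other sites named, such as Taco1, Gm40371, Nim1k and Agpat4, were chosen after their values were seen.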

Additional observations from a re-analysis of the deposited data

How the results depend on the processing

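In all alternatives run, the shares at gene ends, with peaks in both knockout lists and with a peak in the remaining Sox4 list stayed below those of open sites and kept their side of the threshold. The share at gene ends ranged from 5.16% to 13.8%, that with peaks in both knockout lists from 3.99% to 17.2% and that with a peak in the remaining Sox4 list from 7.59% to 30.8%, with the first 2 highest for sites in all 3 replicates. The number of members was 475 and moved to 124 with 10000 Sox4 peaks per list, 988 with 30000, 256 with windows of 100 bp on each side, 29 for sites in all 3 replicates, and 124 to 472 when a Sox4 or wildtype replicate was left out. After seeing the data, keeping all ties (936) and asking for summits within 100 bp (139) were added, as were sites of 2 replicates looked up in the list held out (24.2% to 29.0% with a peak). The difference in width of -62.7 bp became 1.17 ± 27.5 bp (SD, n = 3) for sites in all 3 replicates. It was -33.2 bp with 10000 peaks, -77.8 with 30000, -54.8 with windows of 100 bp, -57.3 with full peak extents, -59.0 at sites lacking all 3 wildtype peaks, -66.7 without members that had a neighbour, -73.2 with ties in chromosome order, -78.7 with all ties, -45.2 with close summits and -75.5 to -61.0 without a replicate. The difference in fold was -0.80 with 30000 peaks and -0.86 to -0.64 without a replicate.

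The share with another site within 10 kb was 8.10% with 30000 peaks, 6.87% ranked by fold, 7.69% with all ties, 9.35% with close summits and 4.84% to 12.9% without a replicate. It was 3.37%, 19.8% and 25.7% with limits of 1, 50 and 100 kb. The share nearest to the 5 families was 28.2% with 10000 peaks, 13.7% with 30000, 37.9% in all 3 replicates, 13.46% with all ties and 13.7% to 23.3% without a replicate. The share without a wildtype peak was 96.6% in all 3 replicates, 93.2% against 100000 wildtype peaks, 100% by definition at sites lacking all 3, 93.5% with close summits and 89.3% to 95.3% without a replicate. Summits lay within 100 bp at 33.6% with 10000 peaks, 58.2% with windows of 100 bp, which allow less distance, 34.6% with full extents and 27.5% to 34.7% without a replicate. Apart from these, the causes were not tested. No paired analysis was possible because no test compared groups of samples: classes of sites were compared over sites, and width and fold were subtracted within each Sox4 replicate.

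Sequencing depth was unknown, so a missing peak says only that none was listed. Of the 475 members, 355 had a weakest rank over 10000, and their number moved most when all 3 replicates were required.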
